A study of Mus musculus with 18 samples.

Results

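The 10 genes described here are *Etnk1*, *Pcyt2*, *Selenoi*, *Pisd*, *Ptdss1*, *Ptdss2*, *Lpcat1*, *Lpcat2*, *Lpcat3* and *Lpcat4*, which were chosen by name because their products make phosphatidylethanolamine and phosphatidylserine or exchange the acyl chains of phospholipids. They are 10 of the 55385 genes in the count table, and all 10 were among the 14979 that reached 10 counts in 2 or more libraries. RNA was sequenced from bone marrow-derived macrophages (BMDMs), grown from marrow of 3 female C57BL/6J mice aged 12 weeks in DMEM with L929 culture supernatant as the source of growth factor. The cells received vehicle (Veh, 0.1% DMSO), 250 µM HC3 (hemicholinium-3, an inhibitor of choline uptake) or 5 µM RSM (RSM-932a, an inhibitor of choline kinase) for 24 h. They were then left naïve (M[0]) or were given IL-4 at 20 ng/mL for a further 24 h (M[IL-4]). The 6 groups are Veh M[0], HC3 M[0], RSM M[0], Veh M[IL-4], HC3 M[IL-4] and RSM M[IL-4], each with 3 libraries, so that all groups share the strain, sex, age and growth medium, and both inhibitors were tested at a single dose. The comparisons ask how the expression of these genes responds when choline entry or its phosphorylation is blocked, and whether IL-4 changes that response.

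Phosphatidylethanolamine is made by the CDP-ethanolamine route, in which ethanolamine is phosphorylated, activated with CTP and joined to diacylglycerol, in parallel with the CDP-choline route to phosphatidylcholine. Phosphatidylserine is made by exchanging serine for the head group of phosphatidylcholine or phosphatidylethanolamine, and its decarboxylation in mitochondria gives phosphatidylethanolamine again. The LPCAT enzymes put an acyl chain back on a lysophospholipid after a phospholipase has removed one, which sets how saturated membrane phospholipids are and, in macrophages, also supplies arachidonate stores and platelet-activating factor.

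Library totals ran from 17457800 to 19522300 counts, and *Lpcat4*, the gene with the fewest counts, had 47 to 183 counts per library, against 256 or more for the other 9 genes. Levels are given as CPM (counts scaled to TMM-adjusted library size). All 9 macrophage markers examined were expressed, but their summed level was not the same in all groups. Among M[0] libraries it was 20859 to 21860 CPM for Veh, 9004 to 10027 for HC3 and 16063 to 17432 for RSM. In M[IL-4] it was 12327 to 12641 CPM for Veh, 7887 to 9011 for HC3 and 11233 to 13519 for RSM. The 6 stromal markers, of which 5 passed the count filter, summed in M[0] to 507 to 855 CPM for Veh, 1199 to 1644 for HC3 and 998 to 1423 for RSM. The sum was carried by *Col1a1*, *Col1a2* and *Col3a1*, whereas *Dcn* (8.496, 7.91 and 2.99 CPM in Veh, HC3 and RSM M[0]) and *Pdgfra* (22.1, 19.0 and 16.2) were not higher with the inhibitors in M[0]. In M[IL-4] the stromal sums were 278 to 648, 550 to 1038 and 527 to 1045 CPM in the same order. Neutrophil, T cell, dendritic cell and mast cell markers each summed to under 3 CPM in every library, and the B cell list was carried by *Ighm* (23.5 CPM in Veh M[0], 5.54 in Veh M[IL-4] and under 2 elsewhere). These marker levels moved with the inhibitors and with IL-4, as did several of the genes below, and their part in the results was not tested. In RNA from a whole culture, fewer cells of a type and less RNA per cell cannot be told apart.

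Per kilobase of exon, the 10 genes spanned a wide range of levels. *Ptdss1* had the highest mean over the 6 groups, at 19.1 CPM per kb, followed by *Lpcat3* at 13.7, *Lpcat1* at 12.7, *Pisd* at 11.3 and *Lpcat2* at 10.5. *Etnk1* (8.02 CPM per kb), *Pcyt2* (5.92), *Ptdss2* (4.49) and *Selenoi* (3.05) were lower, and *Lpcat4* was lowest at 2.04. The genes also differed in how far they moved across groups. The highest group mean exceeded the lowest 4.23-fold for *Lpcat2*, 2.78-fold for *Lpcat1* and 2.12-fold for *Lpcat4*, compared with 1.69-fold for *Pcyt2*, 1.51-fold for *Lpcat3* and 1.10-fold to 1.29-fold for the remaining 5 genes.

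**Figure D1:**
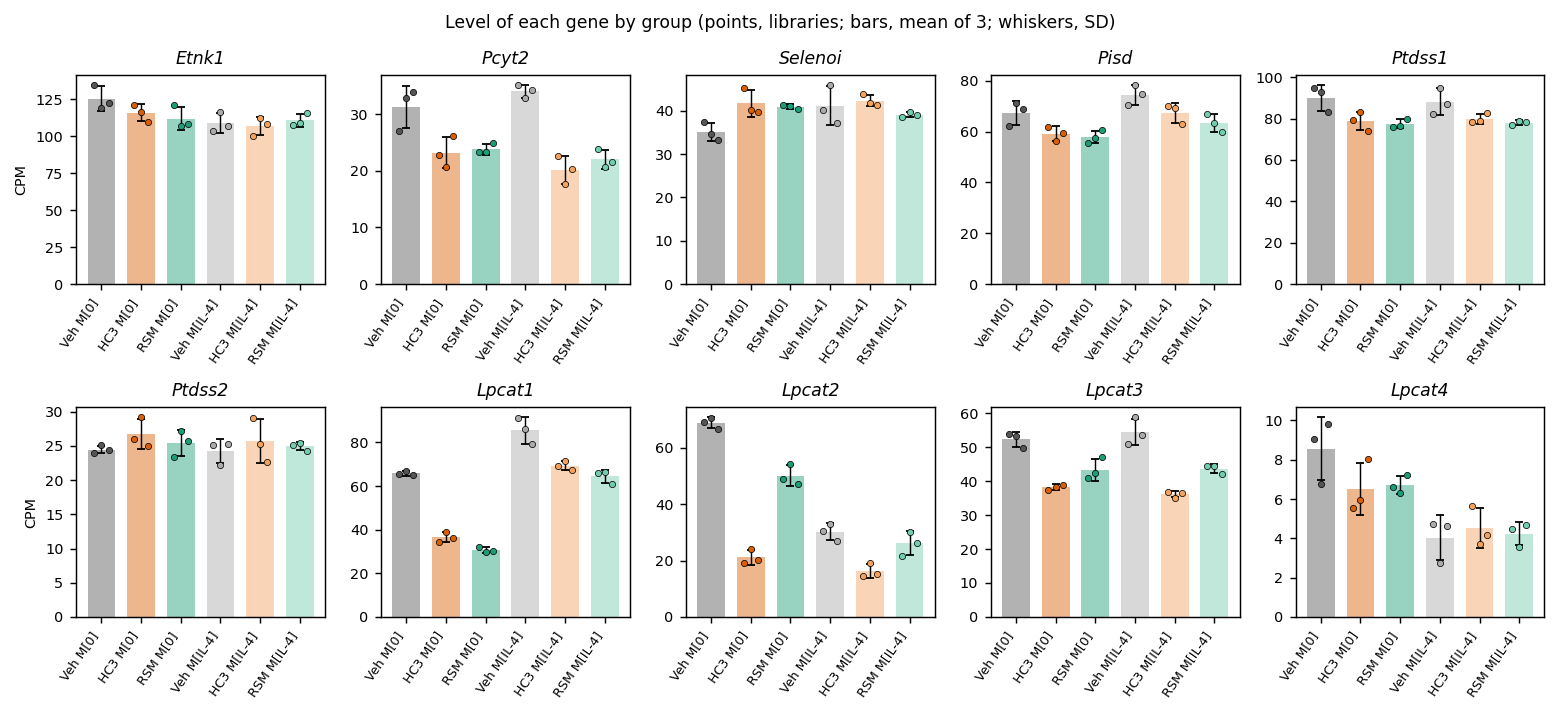
Level of each of the 10 genes in CPM (vertical axis, from 0) in the 6 groups, with a point for each library, a bar for the mean of 3 libraries and whiskers for the SD. *Lpcat2* falls from 68.9 CPM in Veh M[0] to 21.2 in HC3 M[0], whereas *Ptdss2* lies between 22.2 and 29.2 CPM in all 18 libraries.

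In the tests, a gene was taken as changed at a Benjamini-Hochberg adjusted p under 0.05 over all 14979 genes in the edgeR quasi-likelihood test, and fold changes are log2 values with their SE. In M[0], HC3 lowered 6 of the 10 genes and raised 1, where 21.5% of all tested genes were lowered and 22.6% raised. RSM in M[0] also lowered 6 and raised 1, against 20.7% lowered and 20.5% raised among all genes. In M[IL-4], HC3 lowered 4 and raised 0 of the 10, against 19.9% and 18.9% of all genes, and RSM lowered 5 and raised 0, against 18.5% and 20.1%. The median log2 fold change of the 10 genes was -0.29 for HC3 and -0.25 for RSM in M[0], and it was -0.14 for HC3 and -0.20 for RSM in M[IL-4], whereas that of all tested genes lay between 0.01 and 0.02. These counts were lower for both inhibitors in M[0], and for RSM after IL-4, when 1 replicate number was left out of all groups. Omitting replicate 3 gave 4 calls in place of 7 with HC3 in M[0], 3 calls in place of 7 with RSM in M[0], and 3 in place of 5 with RSM in M[IL-4]. Of all 14686 genes tested without replicate 3, 4264, 3874 and 3548 passed in the same order. Omitting replicate 1 or 2 gave 4 calls with RSM in M[0], and omitting replicate 2 gave 3 with RSM in M[IL-4]. With RSM in M[0], 5031 of 14647 genes passed without replicate 1 and 5460 of 14690 without replicate 2. With RSM in M[IL-4], 5135 of 14690 passed without replicate 2. Most of the log2 fold changes of the 10 genes were small. A change of at least 1 on the log2 scale was met by 1 gene for HC3 in M[0] (*Lpcat2*) and 1 for RSM in M[0] (*Lpcat1*), and by 0 in M[IL-4], where 12.0%, 11.6%, 10.3% and 11.0% of all genes met it in these 4 comparisons. At an unadjusted p under 0.05, 6 of the 10 genes differed for HC3 and 5 for RSM in M[IL-4]. No share of all genes was computed at that unadjusted p, so these counts cannot be read against all genes. DESeq2 called 4 and 5 of the 10 genes, where it called 5836 and 5720 of all 14979 genes. Both inhibitors were compared with the same Veh libraries, so their values for a gene are set side by side below and are not independent of each other.

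**Figure D2:**
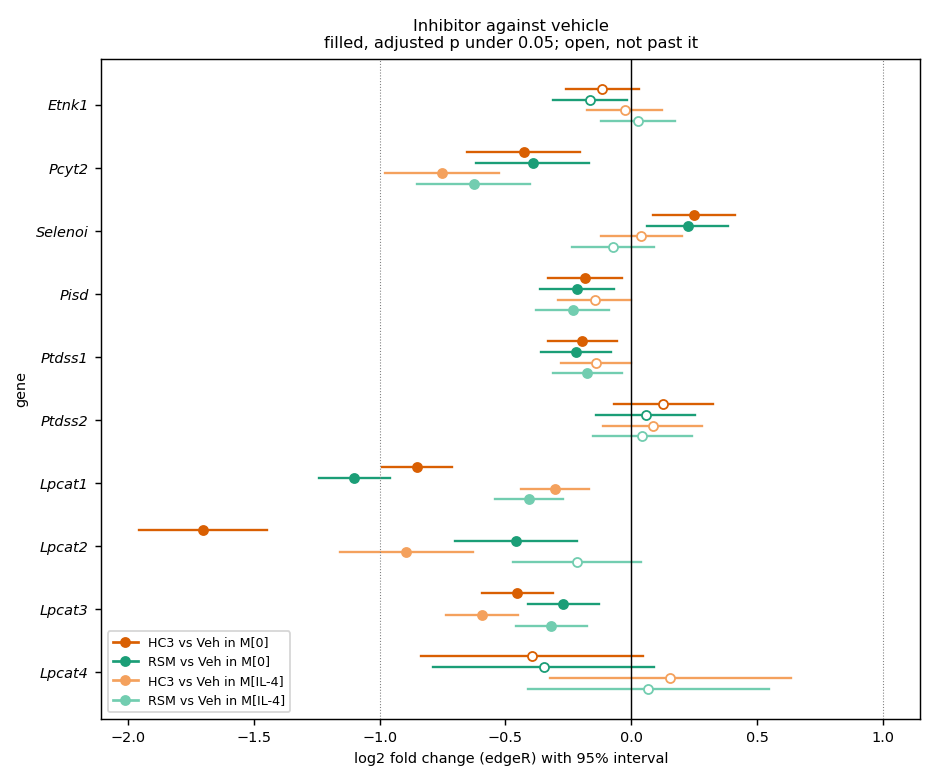
Log2 fold change of each gene (horizontal axis, edgeR, with 95% intervals) for HC3 or RSM against Veh in M[0] and M[IL-4]. Filled points are past an adjusted p of 0.05, and the dotted lines mark -1 and 1. *Lpcat2* with HC3 in M[0] lies farthest from 0, at -1.70, and *Selenoi* is the gene with filled points to the right of 0 (0.25 and 0.22).

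*Pcyt2* encodes the enzyme that activates phosphoethanolamine with CTP, the step that limits flux through the CDP-ethanolamine route, and it was the member of that route that fell with both inhibitors in both polarizations. The gene lies at chr11:120610087-120617936 on the minus strand (GRCm38). Its level was 26.9, 32.8 and 33.9 CPM in the Veh M[0] libraries, 22.7, 20.7 and 26.2 in HC3 M[0], and 23.3, 23.2 and 24.9 in RSM M[0]. The M[IL-4] libraries had 35.1, 32.7 and 34.2 CPM for Veh, 22.6, 17.6 and 20.4 for HC3, and 23.9, 20.7 and 21.6 for RSM. Every inhibitor library was below every Veh library of the same polarization, narrowly so for HC3 in M[0]. The log2 fold change was -0.43 ± 0.11 for HC3 (adjusted p = 0.00318) and -0.39 ± 0.11 for RSM (adjusted p = 0.00637) in M[0]. In M[IL-4] it was -0.75 ± 0.11 (adjusted p = 1.68e-05) and -0.63 ± 0.11 (adjusted p = 0.000113). The fall with RSM in M[0] was not past the threshold without replicate 3 (-0.36, adjusted p = 0.0886). The HC3 value was steeper in M[IL-4], by a difference of -0.33 with a 95% interval of -0.64 to -0.01. The adjusted p of that difference was 0.243, and 0.0467 with the replicate number as a block within each polarization. IL-4 by itself gave 0.12 (95% interval -0.10 to 0.35) in Veh cells and did not pass the threshold in any treatment.

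Neither the enzyme before this step nor the one after it was lowered past the threshold by an inhibitor. *Selenoi* (chr5:30232581-30272427, plus strand), the selenoprotein that joins CDP-ethanolamine to diacylglycerol, was 37.3, 34.7 and 33.2 CPM in Veh M[0], 45.2, 40.1 and 39.7 in HC3 M[0], and 41.4, 41.1 and 40.3 in RSM M[0]. The Veh M[0] libraries were the 3 lowest of the 9. In M[0] it rose by 0.25 ± 0.08 with HC3 (adjusted p = 0.0138) and by 0.22 ± 0.08 with RSM (adjusted p = 0.0270). With 1 replicate number left out, the log2 fold change was 0.21 to 0.25 for HC3 and 0.19 to 0.25 for RSM. The HC3 value was not past the threshold without replicate 1 (adjusted p = 0.0895) or replicate 3 (0.0966). The RSM value was not past it without any 1 of the 3 (0.0504 to 0.190). Without a count filter neither passed (0.0623 and 0.0901). In M[IL-4] the values were 40.2, 46.0 and 37.2 CPM for Veh, 43.8, 41.8 and 41.3 for HC3 and 38.6, 39.7 and 39.0 for RSM, and the groups overlapped. The log2 fold changes there were 0.04 (95% interval -0.12 to 0.20) for HC3 and -0.07 (-0.23 to 0.09) for RSM. The response to RSM differed between M[IL-4] and M[0] by -0.30 ± 0.11 with an adjusted p of 0.105, and of 0.0258 with the block within each polarization.

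*Etnk1* (chr6:143167221-143232307, plus strand) encodes the ethanolamine kinase that opens the route, and it was called in none of the 4 inhibitor comparisons. In M[0] its level was 135, 119 and 123 CPM for Veh, 122, 117 and 110 for HC3, and 121, 107 and 108 for RSM, and the groups overlapped. The M[IL-4] levels were 104, 117 and 107 CPM for Veh, 100.5, 112 and 108 for HC3, and 108, 109 and 116 for RSM. The log2 fold changes were -0.11 (95% interval -0.26 to 0.03) for HC3 and -0.17 (-0.31 to -0.02) for RSM in M[0], with adjusted p of 0.197 and 0.0662. The RSM value passed with the block within each polarization (adjusted p = 0.00571) and with mitochondrial genes left out (-0.175, adjusted p = 0.0467). In M[IL-4] the values were -0.03 (-0.17 to 0.12) for HC3 and 0.03 (-0.12 to 0.17) for RSM. Per kilobase, the ratio of *Selenoi* to *Pcyt2* was 0.324 to 0.459 in Veh M[0] against 0.502 to 0.658 in HC3 M[0] and 0.536 to 0.589 in RSM M[0]. For M[IL-4] the ratio was 0.360 to 0.465 for Veh against 0.641 to 0.787 and 0.534 to 0.636. The ratio of the last enzyme to the CTP-dependent one was therefore higher in each inhibitor library than in each Veh library of its polarization. The ratio of *Etnk1* to *Pcyt2* in M[0] was 1.11 to 1.54 for Veh, 1.29 to 1.73 for HC3 and 1.33 to 1.60 for RSM. Both inhibitors overlapped Veh there. In M[IL-4] this ratio was 0.907 to 1.10 for Veh, 1.37 to 1.96 for HC3 and 1.38 to 1.65 for RSM, and neither inhibitor overlapped Veh. With 3 libraries against 3, an exact two-sided permutation test cannot give a p below 0.1, so such ratios are given as values.

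Of the pair of phosphatidylserine synthases, *Ptdss1*, which uses phosphatidylcholine as its substrate, was lowered in 3 of the 4 inhibitor comparisons, and *Ptdss2*, which uses phosphatidylethanolamine, did not pass the threshold in any of the 11 comparisons. *Ptdss1* (chr13:66932830-66998401, plus strand) was 94.8, 92.7 and 83.0 CPM in Veh M[0], 79.2, 83.2 and 74.1 in HC3 M[0], and 75.8, 76.6 and 79.9 in RSM M[0]. The RSM libraries lay below all Veh libraries and the HC3 libraries overlapped them by a small margin. It fell by 0.19 ± 0.07 with HC3 (adjusted p = 0.0217) and by 0.22 ± 0.07 with RSM (adjusted p = 0.0111) in M[0], and by 0.17 ± 0.07 with RSM in M[IL-4] (adjusted p = 0.0417). For HC3 in M[IL-4] the value was -0.14 (95% interval -0.28 to -0.00316), with an adjusted p of 0.0999, and 0.0443 with the block within each polarization. These falls were close to the threshold. The HC3 call in M[0] was lost without replicate 1 (adjusted p = 0.0979) or 3 (0.0864), the RSM call in M[0] without replicate 1 (0.109) or 2 (0.0612), and the RSM call in M[IL-4] without any 1 of the replicates (0.0656 to 0.210). Without a count filter the HC3 call in M[0] (0.0667) and the RSM call in M[IL-4] (0.107) were lost, and the latter also with a fit of only the compared groups (0.0923) or scaling by library size alone (0.105). On the opposite strand, *Mterf3* covers 5.33% of the exon bases of *Ptdss1*, and the strand setting of the counting is not given in the sources used here. *Mterf3* moved the other way, by 0.33 with HC3 (adjusted p = 0.00678) and 0.49 with RSM (adjusted p = 0.000289) in M[0].

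*Ptdss2* (chr7:141122382-141157606, plus strand) had group means between 24.2 and 26.7 CPM. Its log2 fold change with the inhibitors was 0.13 (95% interval -0.07 to 0.32) for HC3 and 0.06 (-0.14 to 0.25) for RSM in M[0]. In M[IL-4] these values were 0.08 (-0.11 to 0.28) and 0.04 (-0.15 to 0.24). All 4 intervals contained 0. Per kilobase, the ratio of *Ptdss1* to *Ptdss2* in M[0] was 4.46 to 5.19 for Veh, 3.74 to 4.002 for HC3 and 3.68 to 4.24 for RSM, without overlap between Veh and either inhibitor. In M[IL-4] it was 4.29 to 5.602 for Veh, 3.53 to 4.79 for HC3 and 4.01 to 4.23 for RSM, and the HC3 and Veh libraries overlapped.

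*Pisd* (chr5:32736301-32785646, minus strand), the decarboxylase of the inner mitochondrial membrane, was 62.0, 71.2 and 68.8 CPM in Veh M[0], 62.0, 56.3 and 59.4 in HC3 M[0] and 55.7, 57.7 and 60.5 in RSM M[0]. After IL-4 the level was 70.6, 78.5 and 74.7 CPM for Veh, 70.1, 69.3 and 62.9 for HC3, and 67.0, 63.4 and 60.03 for RSM. Its highest HC3 M[0] library was only just below its lowest Veh M[0] library. It fell by 0.19 ± 0.07 with HC3 in M[0] (adjusted p = 0.0385), by 0.22 ± 0.07 with RSM in M[0] (adjusted p = 0.0183) and by 0.23 ± 0.07 with RSM in M[IL-4] (adjusted p = 0.0119). The value for HC3 in M[IL-4] was -0.15 (95% interval -0.29 to -0.000361), with an adjusted p of 0.107. All 3 calls were lost without replicate 2 (adjusted p = 0.306, 0.136 and 0.0907) and without replicate 3 (0.207, 0.0975 and 0.176), and the HC3 value in M[IL-4] passed without replicate 1 (0.0366). Scaling by library size alone gave -0.14 for HC3 in M[0] (adjusted p = 0.0921) and -0.16 for RSM in M[0] (0.0600). These calls were also lost without a count filter (0.105 and 0.0686), and that of HC3 with a fit of only the compared groups (0.0579). The readthrough gene *Gm20671* shares 20.1% of the exon bases of *Pisd* on the same strand but had at most 1 count in any library. The pseudogene *Pisd-ps1*, a copy of *Pisd* at another place in the genome, was counted separately, in M[0] at 24.9 CPM for Veh, 12.1 for HC3 and 15.0 for RSM, and a search for shared stretches of at least 100 bases at 98% identity or more listed no match between its transcripts and those of *Pisd*.

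The LPCAT genes held the largest changes. For *Lpcat1*, *Lpcat2* and *Lpcat3* the upstream sequence is shown here, as the members of this family that fell with both inhibitors in M[0]. Each sequence is the 250 bases before the RefSeq transcription start (GRCm38.p6, plus strand, 5′ to 3′), at chr13:73466981-73467230, chr8:92855083-92855332 and chr6:124662854-124663103. Capitals mark a match to the element TGACGTGG of the unfolded protein response (its reverse complement is read here).
Lpcat1: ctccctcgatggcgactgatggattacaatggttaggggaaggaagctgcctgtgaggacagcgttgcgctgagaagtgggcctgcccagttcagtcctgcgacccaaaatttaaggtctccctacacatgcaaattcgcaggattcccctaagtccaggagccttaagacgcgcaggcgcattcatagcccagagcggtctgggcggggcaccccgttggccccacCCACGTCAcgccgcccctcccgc
Lpcat2: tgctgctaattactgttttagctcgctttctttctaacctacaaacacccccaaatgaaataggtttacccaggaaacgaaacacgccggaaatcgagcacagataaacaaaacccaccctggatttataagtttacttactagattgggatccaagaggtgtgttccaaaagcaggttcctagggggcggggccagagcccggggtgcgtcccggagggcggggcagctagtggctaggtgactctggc
Lpcat3: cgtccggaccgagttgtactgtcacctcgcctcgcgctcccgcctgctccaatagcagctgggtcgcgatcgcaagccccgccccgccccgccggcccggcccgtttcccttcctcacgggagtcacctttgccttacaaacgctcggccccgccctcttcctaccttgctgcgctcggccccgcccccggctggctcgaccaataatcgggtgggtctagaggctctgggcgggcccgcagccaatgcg
Upstream windows were found for 8 of the 10 genes. The windows differ in composition, with 60.8% G and C and 16 CpG dinucleotides for *Lpcat1*, 51.2% and 10 for *Lpcat2*, and 70.0% and 29 for *Lpcat3*, against medians of 52.4% and 6 over all 32851 windows. The match in *Lpcat1* lies 16 to 23 bases before the start, and 0.563% of all windows hold one on either strand. The windows of the other 7 genes hold none, and none of the 8 holds the C/EBP-ATF element TGATGNAAN (3.44% of all windows), the E-box CACGTG (6.02%), the sterol element TCACNCCAC (1.05%) or the cAMP element TGACGTCA (1.55%). A match is only a match of letters, and its absence says nothing about a factor.

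*Lpcat2* (chr8:92855339-92919279, plus strand) encodes the acyltransferase that also acetylates lyso-PAF to platelet-activating factor in inflammatory cells. It was the member with the largest range, and both HC3 and IL-4 lowered it. Its level was 69.2, 70.6 and 66.8 CPM in Veh M[0], 19.0, 24.2 and 20.3 in HC3 M[0], and 49.0, 54.2 and 47.0 in RSM M[0]. These 3 groups were fully apart, with HC3 lowest. Among M[IL-4] libraries the level was 30.6, 33.0 and 27.0 CPM for Veh, 14.5, 19.0 and 15.3 for HC3, and 21.7, 30.2 and 26.2 for RSM. Here HC3 was again apart from both other groups, whereas RSM and Veh overlapped. The log2 fold change with HC3 was -1.70 ± 0.12 in M[0] (adjusted p = 1.60e-09) and -0.89 ± 0.13 in M[IL-4] (adjusted p = 1.34e-05). With RSM it was -0.46 ± 0.12 in M[0] (adjusted p = 0.00351) and -0.22 ± 0.12 in M[IL-4] (95% interval -0.47 to 0.04, adjusted p = 0.175). The RSM value in M[0] was not past the threshold without replicate 3 (-0.44, adjusted p = 0.0745), and the RSM value in M[IL-4] passed with the block within each polarization (adjusted p = 0.0223). The summed macrophage markers given above took the same order across the 3 treatments in M[0] as *Lpcat2*, and their part in its fall was not tested. *Lyz2* made up most of that sum (11633, 5071 and 11660 CPM for Veh, HC3 and RSM). *Adgre1* (2837, 1218 and 1267 CPM) and *Csf1r* (3967, 1519 and 1720 CPM) were nearly alike in HC3 and RSM, unlike *Lpcat2*. The antisense gene *Gm45472*, which covers 8.47% of its exon bases, had 2 to 19 counts per library.

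*Lpcat1* (chr13:73467197-73516422, plus strand) encodes the acyltransferase known for saturated phosphatidylcholine in lung surfactant. It was lowered by both inhibitors and raised by IL-4. Its level was 65.6, 67.0 and 64.9 CPM in Veh M[0], 34.3, 38.8 and 36.4 in HC3 M[0], and 32.2, 29.6 and 30.3 in RSM M[0]. After IL-4 it was 91.1, 86.3 and 79.1 CPM for Veh, 69.3, 71.4 and 67.3 for HC3, and 65.96, 66.5 and 60.9 for RSM. In each polarization the treatments were ordered Veh, HC3, RSM with no overlap, although HC3 and RSM did not differ past the threshold in M[IL-4] (0.11, 95% interval -0.03 to 0.24). The log2 fold change was -0.85 ± 0.07 for HC3 (adjusted p = 5.15e-09) and -1.10 ± 0.07 for RSM (adjusted p = 1.94e-10) in M[0]. It was -0.30 ± 0.06 (adjusted p = 0.000939) and -0.41 ± 0.06 (adjusted p = 4.60e-05) in M[IL-4], where the inhibitor libraries were close to the level of Veh M[0]. These 4 calls were kept in every alternative that was run.

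*Lpcat3* (chr6:124663027-124704418, plus strand) encodes the enzyme that places polyunsaturated chains such as arachidonate in phospholipids, and it fell in all 4 inhibitor comparisons. It was 54.0, 53.2 and 49.95 CPM in Veh M[0], 37.5, 38.3 and 39.0 in HC3 M[0], and 40.9, 42.4 and 47.0 in RSM M[0]. In M[IL-4] it was 51.1, 58.9 and 53.6 CPM for Veh, 36.8, 35.1 and 36.5 for HC3, and 44.5, 44.5 and 42.3 for RSM. HC3 libraries were the lowest and Veh libraries the highest in both polarizations, with RSM between them. HC3 lowered it by 0.45 ± 0.07 in M[0] (a log2 fold change of -0.45, adjusted p = 2.40e-05) and by 0.59 ± 0.07 in M[IL-4] (-0.59, adjusted p = 1.17e-06). RSM gave -0.27 ± 0.07 (adjusted p = 0.00330) and -0.32 ± 0.07 (adjusted p = 0.000892), and the first of these was not past the threshold without replicate 1 (-0.21, adjusted p = 0.0520). *Emg1*, on the opposite strand, covers 10.2% of its exon bases. *Emg1* was 0.19 higher with each inhibitor in M[0] (adjusted p = 0.0339 and 0.0417) and had values of 0.02 and 0.00356 in M[IL-4] (adjusted p = 0.884 and 0.974).

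*Lpcat4* (chr2:112239468-112247111, plus strand), whose product acylates lysophosphatidylethanolamine among other substrates, was low and variable. It was 9.07, 6.75 and 9.84 CPM in Veh M[0], 5.56, 5.94 and 8.05 in HC3 M[0], and 6.62, 6.33 and 7.24 in RSM M[0]. The groups overlapped, and the log2 fold changes of -0.39 (95% interval -0.83 to 0.05) for HC3 and -0.35 (-0.79 to 0.09) for RSM had adjusted p of 0.140 and 0.199. The HC3 value passed with the replicate block within each polarization (adjusted p = 0.0248). In M[IL-4] the inhibitor values were 0.15 (-0.32 to 0.63) and 0.07 (-0.41 to 0.54), with 47 to 100 counts per library in M[IL-4].

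IL-4 was compared with M[0] within each treatment. In Veh cells, IL-4 raised 2 of the 10 genes and lowered 3, against 16.1% raised and 14.9% lowered among all tested genes, and 2 (*Lpcat2* and *Lpcat4*) passed the fold threshold, as did 6.66% of all genes. *Lpcat2* fell by 1.19 ± 0.12 (adjusted p = 3.29e-07) and *Lpcat4* fell by 1.08 ± 0.22 (adjusted p = 0.000894). *Lpcat1* rose by 0.38 ± 0.06 (adjusted p = 0.000169). IL-4 thus moved *Lpcat1* and *Lpcat2* in opposite directions. The other changes in Veh cells were small, a rise of 0.23 ± 0.08 for *Selenoi* (adjusted p = 0.0302) and a fall for *Etnk1* (-0.20 ± 0.07, adjusted p = 0.0328). The *Selenoi* call was lost without replicate 2 (0.13, adjusted p = 0.350) or 3 (0.115), and the *Etnk1* call without replicate 1 (0.158) or 3 (0.201). Both were lost with a fit of only the compared groups (0.109 and 0.0875) and without a count filter (0.0702 and 0.107), and *Selenoi* also with scaling by library size alone (0.0820). *Pcyt2*, *Pisd*, *Ptdss1*, *Ptdss2* and *Lpcat3* did not pass, with values between -0.03 and 0.15. The summed macrophage markers were also lower in Veh M[IL-4] than in Veh M[0], and their part here was not tested.

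In HC3 cells, IL-4 raised 1 of the 10 genes and lowered 0, against 7.22% and 7.48% of all genes, and 0 passed the fold threshold (3.97% of all genes did). At an unadjusted p under 0.05, 4 genes differed, and no share of all genes was computed at that p. DESeq2 called 2, where it called 2379 of all 14979 genes. The gene raised was *Lpcat1*, by 0.93 ± 0.07 (adjusted p = 8.78e-09). *Lpcat2* had a value of -0.38 ± 0.13 with an adjusted p of 0.0526, which passed with DESeq2 (0.0388), without replicate 2 (0.0371), without a count filter (0.0140), with scaling by library size alone (0.0175) and with the block over all libraries (0.00428). In RSM cells, IL-4 raised 1 gene and lowered 2, against 8.79% and 6.74% of all genes, and 1 gene passed the fold threshold, against 4.26%. That gene was *Lpcat1*, with a log2 fold change of 1.07 ± 0.07 (adjusted p = 8.21e-10). *Lpcat2* fell by 0.94 ± 0.12 (adjusted p = 1.11e-05) and *Lpcat4* fell by 0.66 ± 0.22 (adjusted p = 0.0459). The *Lpcat4* call was lost without any 1 of the replicates (adjusted p = 0.0700 to 0.239). In cells without inhibitor the groups of *Lpcat4* were 9.07, 6.75 and 9.84 CPM in M[0] against 4.74, 2.73 and 4.65 CPM in M[IL-4], with no overlap.

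**Figure D3:**
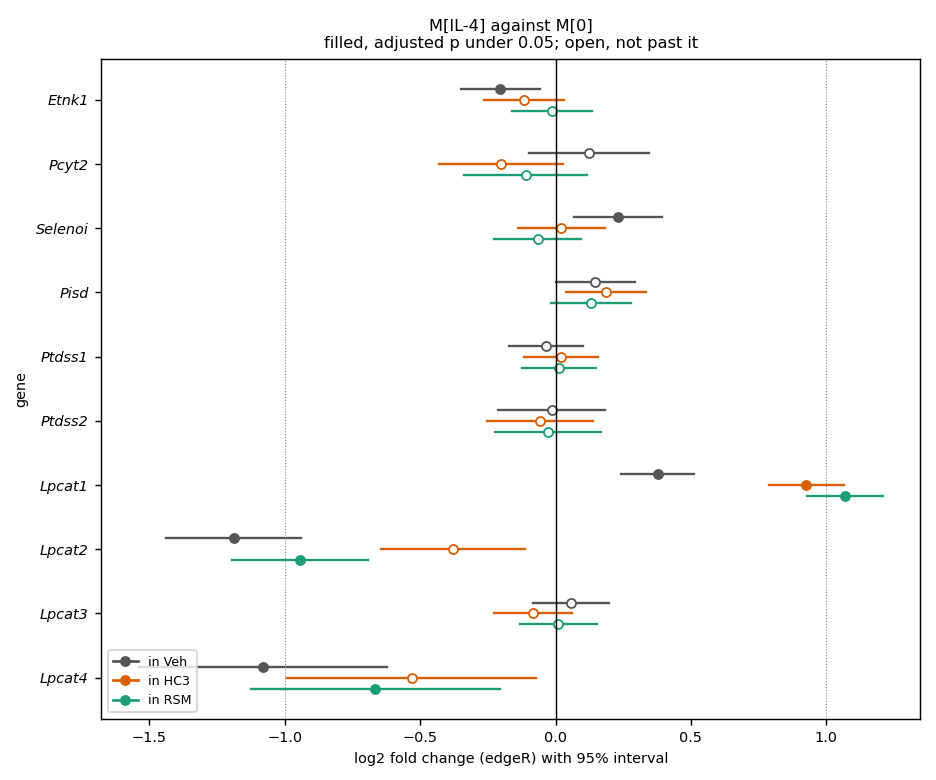
Log2 fold change of each gene (horizontal axis, edgeR, with 95% intervals) for M[IL-4] against M[0] in Veh, HC3 and RSM cells, with filled points past an adjusted p of 0.05. *Lpcat1* lies at 0.38 in Veh, 0.93 in HC3 and 1.07 in RSM cells, and *Lpcat2* at -1.19, -0.38 and -0.94.

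The difference between these responses was tested as an interaction. It passed for 2 of the 10 genes with HC3, against 6.48% of all genes, and for 1 with RSM, against 9.19%. *Lpcat1* was lowered less in M[IL-4] than in M[0], by 0.55 ± 0.09 for HC3 (adjusted p = 0.00119) and 0.69 ± 0.09 for RSM (adjusted p = 7.05e-05). *Lpcat2* was lowered less by HC3 in M[IL-4], with a difference of 0.81 ± 0.17 (adjusted p = 0.00768). For RSM the difference in *Lpcat2* was 0.24 (95% interval -0.11 to 0.60). Without replicate 3, the HC3 interactions were 0.53 for *Lpcat1* and 0.77 for *Lpcat2*, with adjusted p of 0.0998 and 0.229. In that fit 73 of all 14686 tested genes passed the HC3 interaction, against 970 of 14979 with all libraries. For *Lpcat3* the intervals of the difference were -0.34 to 0.06 for HC3 and -0.25 to 0.15 for RSM.

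The inhibitors were also compared with each other, at the single dose used for each. In M[0], 2 of the 10 genes differed between HC3 and RSM, against 13.6% of all genes, and in M[IL-4] 2 differed, against 13.0%. *Lpcat2* was lower with HC3 than with RSM, by 1.24 in M[0] (a log2 fold change of -1.24 ± 0.12, adjusted p = 8.56e-07) and by 0.68 in M[IL-4] (-0.68 ± 0.13, adjusted p = 0.00106). *Lpcat1* was the reverse in M[0], higher with HC3 than with RSM by 0.25 ± 0.07 (adjusted p = 0.0174). *Lpcat3* was lower with HC3 in M[IL-4] (-0.28 ± 0.07, adjusted p = 0.0103), and had -0.18 ± 0.07 in M[0] with an adjusted p of 0.0870, which was 0.0437 with the block within each polarization. Some of these calls were lost when 1 replicate number was left out, which leaves fewer libraries. The *Lpcat1* call was lost without replicate 2 (adjusted p = 0.281) or 3 (0.191), the *Lpcat3* call without any 1 of the replicates (0.0503 to 0.141), and the *Lpcat2* call in M[IL-4] without replicate 3 (0.0821). Without a count filter the *Lpcat1* (0.102) and *Lpcat3* (0.0733) calls were lost, and the *Lpcat1* call also with a fit of only the compared groups (0.0745). For *Pcyt2* the difference between the inhibitors was -0.04 (95% interval -0.26 to 0.19) in M[0] and -0.13 (-0.36 to 0.10) in M[IL-4].

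Because the 4 LPCAT genes moved by different amounts, the make-up of their pooled transcripts differed between groups. On the scale of CPM per kilobase of exon, their summed level in M[0] was 53.6 ± 0.98 (SD, n = 3) for Veh, 28.1 ± 1.51 for HC3 and 37.1 ± 0.71 for RSM. In M[IL-4] it was 45.5 ± 2.18 for Veh, 32.4 ± 0.70 for HC3 and 36.5 ± 1.43 for RSM. In Veh M[0], *Lpcat2* made up 37.9% ± 0.59 of the sum, *Lpcat3* 29.9% ± 0.68, *Lpcat1* 26.5% ± 0.38 and *Lpcat4* 5.66% ± 1.13. In Veh M[IL-4] *Lpcat1* was the largest share at 40.6% ± 1.88 and *Lpcat2* had 19.6% ± 1.04, so that these shares had changed places. HC3 M[0] was led by *Lpcat3* (41.7% ± 1.70), RSM M[0] by *Lpcat2* (39.9% ± 2.73, overlapping *Lpcat3* at 35.8% ± 2.33), HC3 M[IL-4] by *Lpcat1* (46.2% ± 0.39) and RSM M[IL-4] by *Lpcat1* (38.1% ± 1.40). In RSM M[IL-4] *Lpcat3* had 36.7% ± 1.16, less than *Lpcat1* in each library, although the ranges overlapped (37.1% to 39.7% for *Lpcat1* and 35.7% to 37.97% for *Lpcat3*). The ratio of *Lpcat1* to *Lpcat2* per kilobase ran from 0.451 ± 0.045 in RSM M[0] through 0.699 ± 0.010 in Veh M[0] and 1.27 ± 0.08 in HC3 M[0] to 1.84 ± 0.33 in RSM M[IL-4], 2.08 ± 0.14 in Veh M[IL-4] and 3.15 ± 0.38 in HC3 M[IL-4]. Of the neighbours in this order, only RSM M[IL-4] and Veh M[IL-4] overlapped (1.61 to 2.22 against 1.91 to 2.18).

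**Figure D4:**
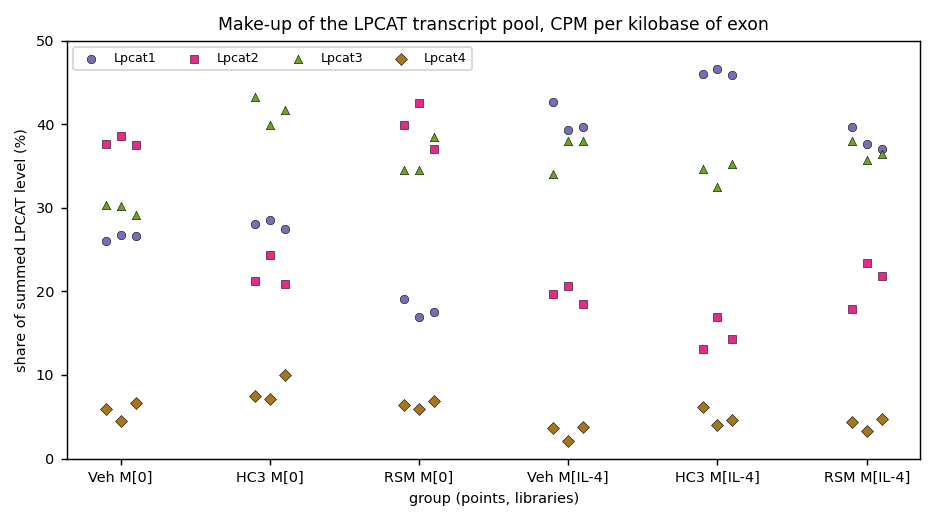
Share of each LPCAT gene in the summed level of the 4 genes (vertical axis in percent, from CPM per kilobase of exon) in each of the 18 libraries, by group. *Lpcat2* goes from 37.6% to 38.6% in Veh M[0] to 18.5% to 20.6% in Veh M[IL-4], and *Lpcat1* from 26.1% to 26.8% to 39.3% to 42.7%.

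Across the 18 libraries, the genes whose log2 CPM followed a member most closely, among the 10974 that averaged 50 counts or more, are given as a description; the libraries fall into 6 groups, so the points are not independent. *Lpcat1* was closest to *Igf1* (Pearson r = 0.979) and *Tmem106a* (0.969). *Lpcat2* was closest to *Ggta1* (0.969) and *Mertk* (0.966), the latter an efferocytosis receptor and one of the 9 macrophage markers. *Lpcat3* was closest to *Gm10925* (0.978) and to *mt-Co2* (0.967), a gene of the mitochondrial genome, and its 4 calls were the same with mitochondrial genes left out. *Pcyt2* was closest to *Gamt* (0.961) and *Oaz1* (0.948), and *Pisd* to *Rtf2* (0.942) and *Rnf166* (0.911). *Ptdss1* was closest to *Ube2l3* (0.933) and *Chmp1b* (0.902), and *Lpcat4* to *Nlgn2* (0.908) and *Abl1* (0.902). The closest genes to *Selenoi* (*Arih1*, 0.876, and *Xpo1*, 0.858), *Etnk1* (*Pja2*, 0.836, and *Tmed8*, 0.830) and *Ptdss2* (*Snx15*, 0.739, and *Zxdc*, 0.725) were less alike. Among the members, *Pcyt2* and *Lpcat3* had the highest correlation (0.843), followed by *Pisd* and *Lpcat1* (0.816), and *Lpcat1* and *Lpcat2* had -0.141.

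The neighbouring steps of phospholipid metabolism are given for context, counted in the order HC3 M[0], RSM M[0], HC3 M[IL-4] and RSM M[IL-4] against Veh. Of 7 tested genes of the choline branch, 4, 3, 1 and 3 were lower and 0, 0, 0 and 1 higher, with medians of -0.45, -0.29, -0.10 and -0.23. Its own CTP-dependent enzyme *Pcyt1a*, the counterpart of *Pcyt2*, was chosen for mention after its values were seen and had -0.45, -0.56, -0.10 and -0.31, of which the third did not pass (adjusted p = 0.427). The fall was not particular to *Pcyt1a* in this branch. The transporter gene *Slc44a1* had -0.69, -0.43, -0.69 and -0.90, all past the threshold. *Chka* passed in none of the comparisons, and *Chpt1* rose with RSM in M[IL-4] (0.54). Of 10 other tested genes of phosphatidylethanolamine and ether lipid synthesis, 2, 0, 3 and 2 were lower and 2, 1, 2 and 1 higher, with medians between -0.11 and 0.00. Of 23 genes of phosphatidylserine transport, flippases and scramblases, 6, 6, 6 and 4 were lower and 6, 4, 6 and 4 higher, with medians of -0.05, -0.08, -0.10 and 0.08. These medians stand beside all-gene medians of 0.01 to 0.02, and the counts here and in the next lists beside 18.5% to 21.5% of all tested genes lower and 18.9% to 22.6% higher, with several counts near those shares.

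Other acyltransferases, phospholipases and acyl-CoA genes included larger changes than most of the 10 genes. Of 14 other glycerophospholipid acyltransferases, 2, 2, 5 and 5 were lower and 6, 5, 4 and 3 higher, with medians of 0.11, 0.05, 0.03 and 0.03. *Gpat3*, which starts glycerolipid synthesis, rose in all 4 comparisons, by 1.68, 3.13, 2.58 and 3.64, from 0.787 CPM in Veh M[0] and 0.302 in Veh M[IL-4]. *Mboat2*, a lysophospholipid acyltransferase of oleate, rose by 1.48 with HC3 in M[0], at low levels (0.443 CPM in Veh and 1.26 in HC3). It fell in M[IL-4], where it went from 5.30 CPM in Veh to 0.646 in HC3 (-3.02) and 0.945 in RSM (-2.48). *Mboat1*, its relative that acylates lysophosphatidylserine, fell in all 4 comparisons (-0.84, -0.74, -1.14 and -1.47). Of 23 phospholipases and lysophospholipases, 5, 5, 3 and 5 were lower and 7, 4, 5 and 6 higher, with medians of 0.07, -0.06, -0.0031 and 0.06. *Pla2g4a*, the cytosolic phospholipase that releases arachidonate, rose from 19.5 CPM in Veh M[0] to 55.6 with HC3 (1.51 ± 0.08) and 61.4 with RSM (1.65 ± 0.08), opposite to *Lpcat3*, and rose in M[IL-4] by 0.84 and 0.83. *Pla2g7*, the PAF acetylhydrolase that degrades the product of *Lpcat2*, rose with RSM from 54.9 to 343 CPM in M[0] (2.65 ± 0.24) and from 28.6 to 137 CPM in M[IL-4] (2.26 ± 0.24), and by 0.85 with HC3 in M[0]. *Pla2g2e* and *Plbd1* also met the rule for naming, at group means under 4 CPM, and *Plbd1* was called lower. In all, 5 genes of this list met the rule, of which 4 are named by it. *Pla2g15*, chosen for mention after its values were seen, had lower group means with both inhibitors. They were 299 CPM in Veh, 139 in HC3 and 102 in RSM in M[0], and 386, 223 and 209 CPM in M[IL-4]. Of 12 acyl-CoA synthetases, elongases and desaturases, 3, 2, 6 and 6 were lower and 5, 6, 2 and 3 higher, with medians of 0.17, 0.23, -0.15 and -0.17. *Elovl6*, which elongates palmitate, rose in all 4 comparisons (1.61, 1.16, 1.40 and 1.05), *Fads3* rose in M[0] (1.11 and 1.27) and with RSM in M[IL-4] (0.64), and *Fads2* fell in M[IL-4] (-1.13 and -1.01).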

How the data were processed

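The authors selected mRNA with poly-T beads and sequenced 18 BMDM libraries. The deposited values are raw counts, that is, read pairs assigned to each Ensembl gene. Per the labels and the methods of the study, the authors used fastp for trimming, STAR for alignment (GRCm38, mapping quality of 40), Picard for duplicates and featureCounts. The annotation release and strand setting are not given in the sources used here. Groups and replicate numbers came from the sample labels, which do not tie a number to a mouse, so p-values measure the spread between these libraries.

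A gene was tested if 2 or more libraries reached 10 counts for it (14979 genes). One edgeR model (version 4.0.16 under R 4.3.3, TMM scaling, glmQLFit and glmQLFTest) was fitted to the 18 libraries without a block, and gave 11 comparisons with Benjamini-Hochberg adjustment over every tested gene. The script was tested on simulated data. The SE is the log2 fold change divided by the square root of F. Positions and exon lengths came from GENCODE M21 (GRCm38) and upstream windows from RefSeq (GRCm38.p6). Library totals were 17457800 to 19522300 counts, and replicate libraries of a group differed beyond counting error (chi-square per gene of 6.33 to 20.4).

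Residuals of same-numbered libraries correlated above 0.1 in 18 of 18 pairs within a polarization (r of 0.283 to 0.721) and in 17 of 27 across polarizations, so the numbers were taken to pair libraries within a polarization. The members and lists were chosen with earlier results of these data known. Named genes were the 10 members, the 2 most alike for each, overlapping genes and copies, and up to 4 per list that passed FDR and fold the same way in at least 2 inhibitor comparisons. The alternatives were a block on replicate number (over all libraries or within a polarization), separate fits of the groups compared, DESeq2 1.42.0, an unfiltered table, filterByExpr, unscaled library sizes, removal of mitochondrial genes, and omission of replicate 1, 2 or 3 from all groups. No protein sequence was used here.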

Additional observations from a re-analysis of the deposited data

Results flagged for a closer look

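The effect of an inhibitor differed between M[0] and M[IL-4] in the edgeR test of the difference itself for 3 of the 20 gene and inhibitor pairs. Among all tested genes, 6.48% passed this test with HC3 and 9.19% with RSM. The differences (log2, M[IL-4] minus M[0]) were 0.548 for *Lpcat1* with HC3, 0.6924 for *Lpcat1* with RSM and 0.8082 for *Lpcat2* with HC3. In each, the inhibitor lowered the gene in both polarizations and by less in M[IL-4]. Without replicate 3, the HC3 differences did not pass (adjusted p = 0.0998 for *Lpcat1* and 0.229 for *Lpcat2* in edgeR). Their values there were 0.5256 and 0.7687, and 73 of all 14686 genes passed the HC3 interaction in that fit. All 3 differences rest on groups of 3 libraries, which are too few for a test of single outlying libraries.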

How the results depend on the processing

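Of 721 recomputed values of single genes, 639 kept their direction and side of the threshold, 55 no longer passed it, 18 newly passed it and 9 changed sign, all 9 for values that did not pass in any of these fits. The 4 *Lpcat1* falls, the HC3 falls of *Lpcat2*, *Lpcat3* and *Pcyt2*, and the falls of *Pcyt2* and *Lpcat3* with RSM in M[IL-4] passed in every alternative. Without a count filter, genes past the threshold numbered 4 for HC3 in M[0], 3 for IL-4 in Veh, 2 for IL-4 in HC3, and for HC3 against RSM 1 in either polarization. A fit of only the compared groups gave 3 for IL-4 in Veh and 1 for HC3 against RSM in M[0]. For IL-4 in HC3, DESeq2 gave 2 and library size only gave 2. With the replicate block over all libraries, whose numbers were not taken to pair libraries across polarizations, IL-4 in HC3 gave 3. With the replicate block within each polarization, the RSM interaction gave 3, and this block, which was not run for IL-4 against M[0], changed no other call than those given beside the results and that of *Etnk1* in the RSM interaction (0.19, just under the threshold). Leaving out 1 replicate number of all groups gave 4 to 6 for HC3 in M[0], 3 to 4 for RSM in M[0] and the same range for RSM in M[IL-4], 3 to 4 for IL-4 in Veh, 1 to 2 for IL-4 in HC3, 1 to 2 for HC3 against RSM in M[0], 0 to 1 for it in M[IL-4] and 0 to 2 for the HC3 interaction. Both counts of 0 came from edgeR without replicate 3, where 2 genes had an unadjusted p under 0.05, a p at which no share of all genes was computed. Signs changed for *Etnk1* with HC3 in M[IL-4] under library size only (0.02335) and for *Ptdss2* with IL-4 in Veh without a count filter (0.002659). Leaving out replicates gave -0.01032 to 0.1353 for *Selenoi* with HC3 in M[IL-4], -0.02193 to 0.07498 for *Etnk1*, -0.04079 to 0.09515 for *Ptdss2* and -0.04747 to 0.1592 for *Lpcat4* with RSM in M[IL-4], and, for IL-4 in Veh, -0.01273 to 0.1815 for *Pcyt2*, -0.08436 to 0.03322 for *Ptdss1* and -0.07508 to 0.05423 for *Ptdss2*. Fewer libraries remain in these fits, and the causes were not tested further. Depth limits *Lpcat4* most, at 47 to 183 counts per library.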
